A study of Mus musculus with 2 samples.

Results

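Among 158 genes that the authors listed as higher in neural stem cells carrying an shRNA against Nap1l1 than in control cells, 8 genes known from the immune system are described here: Cxcl10, Ltb, Lgals9, Fcer2a, Lair1, Dock2, Gbp5 and Cyba. They were chosen by symbol, and are not all the listed genes with immune roles, from a table already selected for a high ratio, so their ratios are a description and not a test. The cells came from the brain of ICR mouse embryos at embryonic day 12 and grew in proliferation medium for 1 day. Both groups were infected with lentivirus. The control group received the Piscor construct, and the other group received the construct Nap1l1-shRNA1, 1 hairpin RNA made to lower the mRNA of Nap1l1, a histone chaperone gene. There was 1 library per group, and uninfected cells were not analysed here. A second hairpin and the level of Nap1l1 itself were also not analysed here, so the labels could not be checked by the targeted gene.

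Interferons are secreted proteins by which cells signal infection, and the genes they induce include chemokines, which attract leukocytes, and large GTPases that act on membranes around pathogens. Cxcl10 and Gbp5 are textbook interferon-induced genes. Of the other genes, most are known mainly from white blood cells: Ltb from lymphocytes, Fcer2a from B cells, and Lair1 and Dock2 from leukocytes generally. Cyba is known best from phagocytes, but the authors' deposited annotation also places its protein in dendrites and the neuronal cell body. Lgals9 is made by many tissues. In the embryonic brain, microglia are the resident immune cells, and neural stem cells themselves can respond to interferon.

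The stretch upstream of the start site of a gene holds many of the sequences that transcription factors bind. The 8 genes matched 10 RefSeq start windows (assembly GRCm38.p6, 250 bases before to 50 bases after each start), because Fcer2a has 3 starts. These 4 stretches are printed because they held a match to the core of the interferon-stimulated response element (ISRE) or of the gamma-activated sequence (GAS). They are written 5′ to 3′ on the strand of the gene, from 250 bases before the RefSeq start up to that start or, where it comes sooner, up to the first base that lies in an annotated exon of the gene. Capitals mark every match to the motifs defined in the next paragraph. The Cxcl10 stretch lies at chr5:92348890-92349139 (minus strand), Gbp5 at chr3:142496684-142496899 (plus strand), Lgals9 at chr11:78984947-78985174 (minus strand) and Ltb at chr17:35194257-35194438 (plus strand).
Cxcl10: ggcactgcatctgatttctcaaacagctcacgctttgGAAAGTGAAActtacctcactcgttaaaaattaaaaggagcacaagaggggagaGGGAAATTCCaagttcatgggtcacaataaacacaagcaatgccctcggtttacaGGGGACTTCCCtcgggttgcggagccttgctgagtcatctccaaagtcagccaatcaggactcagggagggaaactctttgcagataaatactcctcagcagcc
Gbp5: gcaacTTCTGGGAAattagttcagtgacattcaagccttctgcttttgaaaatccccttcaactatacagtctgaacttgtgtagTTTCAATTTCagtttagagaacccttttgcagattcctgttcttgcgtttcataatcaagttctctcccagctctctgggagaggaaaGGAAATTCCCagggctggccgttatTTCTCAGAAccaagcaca
Lgals9: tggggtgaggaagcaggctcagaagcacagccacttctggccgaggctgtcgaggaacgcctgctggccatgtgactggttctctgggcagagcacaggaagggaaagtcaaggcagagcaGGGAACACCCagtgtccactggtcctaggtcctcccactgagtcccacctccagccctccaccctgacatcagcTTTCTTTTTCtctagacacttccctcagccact
Ltb: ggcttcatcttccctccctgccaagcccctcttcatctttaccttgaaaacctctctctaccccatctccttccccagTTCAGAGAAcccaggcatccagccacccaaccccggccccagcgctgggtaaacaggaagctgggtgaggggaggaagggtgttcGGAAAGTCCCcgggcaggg

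The motifs were searched on both strands as fixed letters, with N for any base: GAAANNGAAA for the ISRE core, TTCNNNGAA for the GAS core, GGGNNNNNCC for the kappa B core bound by NF-kB factors, and TATAAA for the TATA box. A match is a description of letters and no evidence of binding. The genes were picked by name as immune and interferon-related, so the shares of their windows with a motif are not independent of that choice. An ISRE core was found in 3 of the 10 windows, from 3 genes, against 3.44% of 32851 RefSeq start windows of the same length. Cxcl10 held it from -213 to -204 relative to the start, Gbp5 from -165 to -156, and Lgals9 from -55 to -46 and again, past the start, from 16 to 25. A GAS core was found in 2 of the 10 windows, in Ltb (from -172 to -164) and at 2 places in Gbp5 (from -245 to -237 and from -52 to -44), against 8.3% of all windows. The kappa B letters were found in 6 of the 10 windows, from all genes but Lair1 and Dock2, and 50.8% of all windows hold these common letters, so the members' share is near the background. Neighbouring kappa B matches overlap each other in Cxcl10, Ltb and Cyba, and the pair in Lgals9 is 1 site read on both strands. The ISRE, GAS and kappa B matches did not overlap one another. The 1 TATA box lay from -33 to -28 at the most upstream start of Fcer2a, against 13.6% of all windows. Lair1, Dock2 and the other starts of Fcer2a held none of these letters. In base composition the 10 upstream windows ran from 42.8% (Gbp5) to 63.2% (Ltb) G and C, with a median of 51.4% beside 52.4% over all windows. They held 2 to 6 CpG pairs each, with a median of 3 beside 6 over all windows, whose lower and upper quartiles were 2 and 16. In the table, Gbp5 begins 2956 bases upstream of its RefSeq start, and the stretch before that position was not searched.

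**Figure D1:**
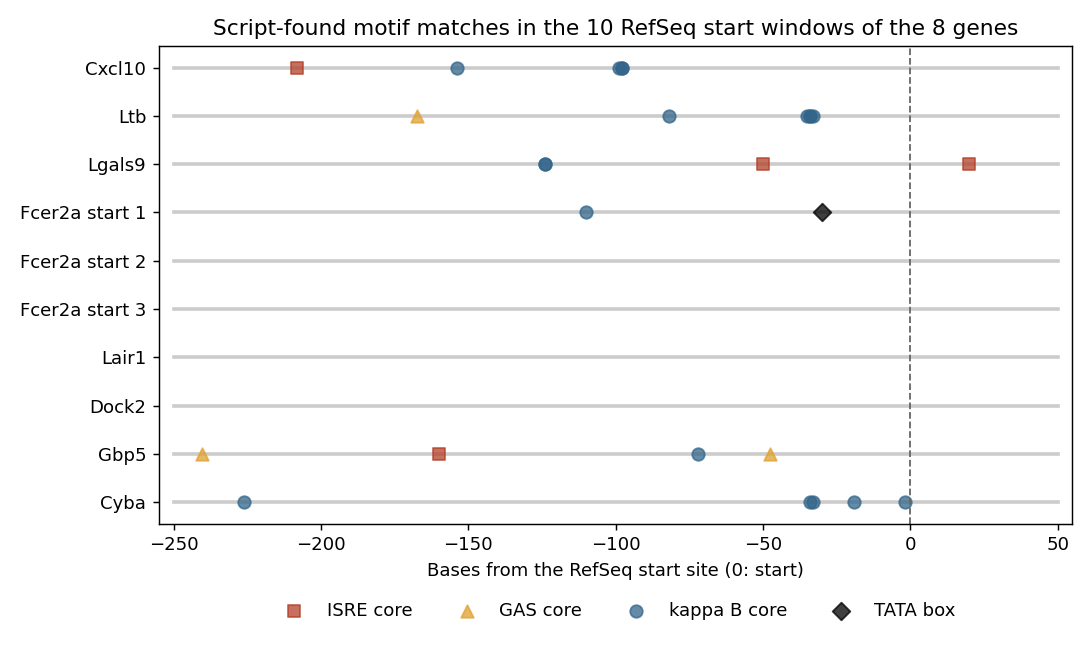
Positions of the motif matches in the RefSeq start windows, with bases from the start site on the x axis and 1 line per window. Each symbol is the centre of 1 match on either strand. The ISRE core (red squares) appears for Cxcl10, Lgals9 and Gbp5, and Lair1 and Dock2 have no match.

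The libraries held 8777836 reads (Nap1l1-shRNA1) and 8325166 reads (Piscor), so that 1 read equals 0.114 and 0.12 CPM (counts scaled to the library total), respectively. Together the 8 genes had 119 reads with Nap1l1-shRNA1 and 38 with Piscor. That is 13.6 against 4.56 CPM, a ratio of 2.97 with an exact 95% conditional binomial interval of 2.05 to 4.4. The interval covers counting error only, since copies made by PCR are not independent molecules and no second library shows how much 2 cultures differ. The 150 other listed genes pooled to a ratio of 3.28 (interval 2.99 to 3.59). That value lies inside the interval of the 8 genes, and both were fixed in part by the listing. The median-ratio and TMM scalings centre on these listed genes and shift every log2 ratio by -1.80 and -1.79. Under them the pooled ratios fell below 1, to 0.854 (interval 0.588 to 1.27) and 0.857 (0.59 to 1.27). Both intervals include 1.

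All 8 genes had a higher CPM in the shRNA library, as the listing fixed. The exact 95% interval of the ratio lay above 1 for 6 of them, and it included 1 for Lgals9 and Lair1. Over all 158 listed genes 60.1% had such an interval, and since the genes were listed on these same counts nothing is read from either share. Every one of the 8 intervals held the pooled ratio of 2.97. The pool is made of these same genes and the intervals are wide, so this was nearly fixed and shows no likeness among them. The share over all listed genes was not counted. With the less strict mid-p interval all 8 lay above 1 (98.1% of all listed genes), and with a stricter 99% interval none did, 0 of 8 (10.8%). An interval wholly above 2 was found for 0 of the 8 genes, against 1.9% of all listed genes. On log2(CPM + 1), a scale that compresses differences at low levels, the log2 ratios ran from 0.69 (Lair1) to 0.88 (Fcer2a), and 0 of the 8 reached a log2 ratio of 1, against 6.33% of all listed genes. The median of the 8 ratios was 3.16, or 2.77 with Ltb, which had no control read, set at the floor of 3 control reads. Over all listed genes these medians were 5.14 and 2.85. The 8 genes had more reads than the usual listed gene, with a median of 15 against 11 in the shRNA library and of 5 against 2 in the control. All 8 are protein-coding, and the 83 listed protein-coding genes had medians close to theirs, 14 and 4 reads. In this bulk RNA, more cells of a type and more RNA per cell cannot be told apart.

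**Figure D2:**
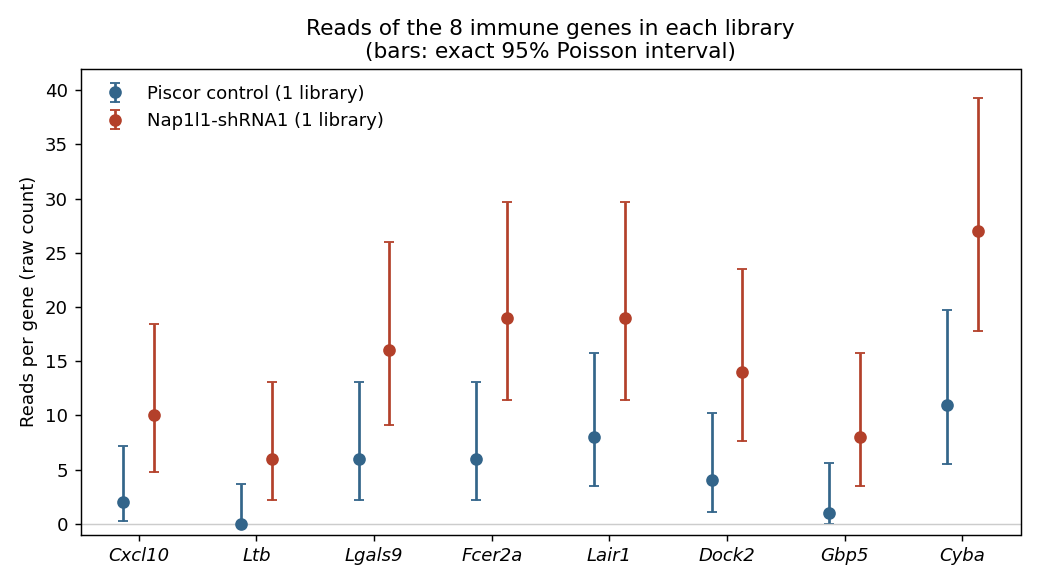
Raw read counts of the 8 genes in the Piscor library (blue) and the Nap1l1-shRNA1 library (red), with exact 95% Poisson intervals as bars. The count was higher in the shRNA library for every gene, and the 2 intervals of each gene overlap.

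Of the 3 secreted or surface-bound ligands, Cxcl10 encodes a chemokine that attracts activated T cells. It lies on chromosome 5 (92346638 to 92348889, minus strand, ENSMUSG00000034855). Cxcl10 was read 10 times with Nap1l1-shRNA1 (exact 95% Poisson limits 4.80 and 18.4) and 2 times with Piscor (0.242 and 7.22), a ratio of 4.74 (1.01 to 44.5). Its Poisson intervals in both libraries overlap, and the lower limit of the ratio falls to 0.883 with 1 read fewer in the shRNA library. Art3, a protein-coding gene on the opposite strand, shares 133 of its 2252 exon bases, or 5.91%. Strand use in counting was not stated, so reads in those bases cannot be assigned, and Art3 was not among the listed genes.

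Ltb encodes lymphotoxin beta, a membrane protein of the TNF family that directs lymph node formation. It lies on chromosome 17 (35194439 to 35196320, plus strand, ENSMUSG00000024399). Ltb had 6 reads with Nap1l1-shRNA1 (2.20 to 13.1) and 0 with Piscor (upper Poisson limit 3.69). A chosen floor of 3 reads, or 0.36 CPM, stood for the 0. With the control set at that floor the ratio would be 1.90. The exact interval was computed from the 0 control reads and not from the floor. It also covers the counting error of the 6 reads, and its lower limit was 1.12. That limit would be 0.69 with 1 read more in the control and 0.869 with 5 reads in place of 6. The authors' deposited table gives Ltb a fold change of 199.8 and a log2 fold change of 3.51, since the 2 columns replace the control count of 0 by different small values. A read count of 6 against 0 was found in 11 listed genes. The nearest other listed gene was Hspa1a, at a distance of 222.3 kb.

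Lgals9 encodes galectin-9, a lectin that binds galactosides and acts on T cells. It lies on chromosome 11 (78962974 to 78984946, minus strand, ENSMUSG00000001123). Lgals9 had 16 reads with Nap1l1-shRNA1 (9.15 to 26.0) and 6 with Piscor (2.20 to 13.1), a ratio of 2.53 (0.94 to 7.89). By the exact interval, the difference at this depth was within counting error, and the less strict mid-p interval began at 1.01. Pooled, the 3 ligands reached 32 reads against 8, which is 3.79 times the control CPM (1.71 to 9.53).

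Both receptors had the same count in the shRNA library, 19 reads (11.4 to 29.7), and differed by 2 reads in the control. Fcer2a encodes the low affinity receptor for immunoglobulin E, a C-type lectin of B cells, and lies on chromosome 8 (3681737 to 3694174, minus strand, ENSMUSG00000005540). Its 6 control reads (2.20 to 13.1) give a ratio of 3 (1.15 to 9.19). Fcer2a was 1 of 2 members, with Cyba, whose interval stayed above 1 with 1 read fewer in the shRNA library (lower limit 1.08) or 1 read more in the control (1.04). How many of the other listed genes did so was not counted. Lair1 encodes an inhibitory receptor of leukocytes that binds collagen, and lies on chromosome 7 (4003402 to 4063204, minus strand, ENSMUSG00000055541). Its 8 control reads (3.45 to 15.8) give a ratio of 2.25 (0.942 to 5.95), the lowest of the 8 genes, and an interval that includes 1. The pooled receptors reached 38 reads against 14, which is 2.57 times the control CPM (1.36 to 5.14).

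Of the 3 proteins that act inside the cell or in its membranes, Dock2 is an activator of the GTPase Rac that leukocytes need to migrate. Its gene on chromosome 11 (34226815 to 34783892, minus strand, ENSMUSG00000020143) spans 557078 bases, of which 2.05% are exons. Dock2 had 14 reads with Nap1l1-shRNA1 (7.65 to 23.5) and 4 with Piscor (1.09 to 10.2), a ratio of 3.32 (1.04 to 13.8). The antisense gene 4930403D09Rik shares 460 of its 11425 exon bases, or 4.03%, and was not listed.

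Gbp5 encodes a guanylate-binding protein, an interferon-inducible GTPase that takes part in inflammasome activation. It lies on chromosome 3 (142493978 to 142522344, plus strand, ENSMUSG00000105504). Gbp5 had 8 reads with Nap1l1-shRNA1 (3.45 to 15.8) and 1 with Piscor (0.0253 to 5.57), a ratio of 7.59 (1.02 to 337). It had the highest ratio of the 7 genes with a control read and the widest finite interval, which rests on the 1 control read. A count of 8 against 1 was found in 13 listed genes. Gbp5 belongs to a family of similar genes, so how reads that match several of them were counted is uncertain.

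Cyba encodes the light chain of cytochrome b-245, a membrane subunit of the NADPH oxidase by which phagocytes make superoxide. It lies on chromosome 8 (122424772 to 122432940, minus strand, ENSMUSG00000006519). Cyba had 27 reads with Nap1l1-shRNA1 (17.8 to 39.3) and 11 with Piscor (5.49 to 19.7), a ratio of 2.33 (1.12 to 5.20). It had the most reads of the 8 genes in both libraries, with 22.7% of their Nap1l1-shRNA1 reads and 28.9% of their Piscor reads. Without Cyba the pooled ratio was 3.23 (2.08 to 5.16). The 3 intracellular and membrane proteins pooled to 49 reads against 16, a ratio of 2.90 (1.62 to 5.47). The intervals of the ligands, the receptors and this group overlap.

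**Figure D3:**
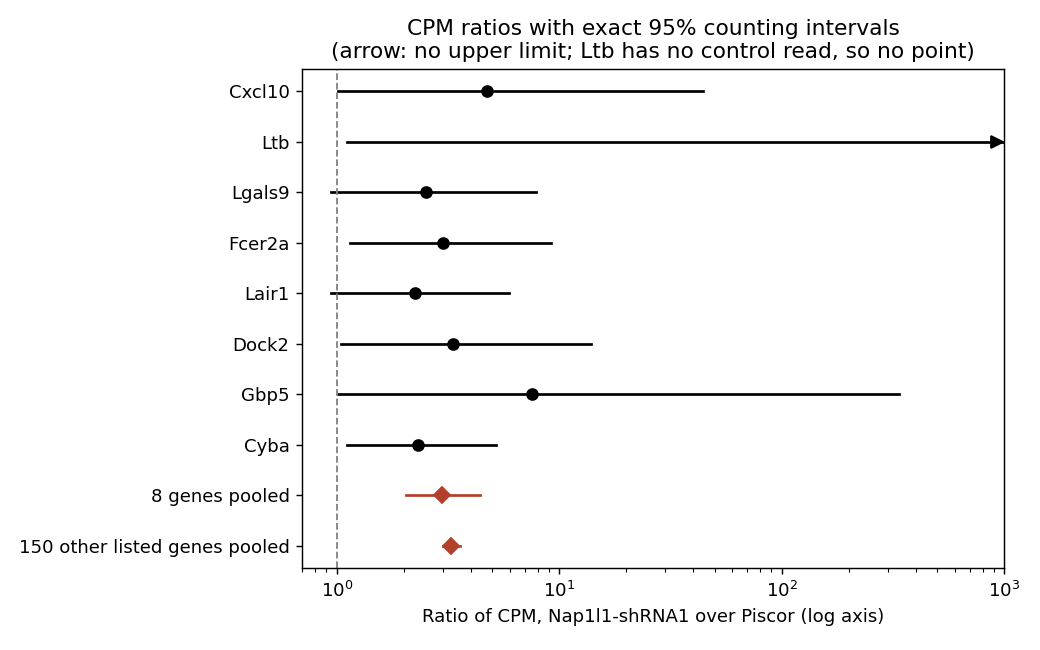
Ratio of CPM, Nap1l1-shRNA1 over Piscor, on a log axis, with exact 95% counting intervals as lines. The dashed line marks equal CPM: the intervals of Lgals9 and Lair1 cross it, and the pooled ratios of the 8 genes (2.97) and of the 150 other listed genes (3.28) have overlapping intervals.

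Levels of different genes can be compared only per length, so reads were divided by the exon length in kilobases (the union of GENCODE M21 exons) and by the library total (RPKM). Cyba, with 1039 exon bases, had the highest level in the shRNA library, 2.96 RPKM (1.95 to 4.31 by exact 95% Poisson limits). Lgals9 followed with 0.853 RPKM (0.488 to 1.39), and its interval did not overlap that of Cyba. Below it came Fcer2a (0.70 RPKM), Cxcl10 (0.506), Ltb (0.451), Lair1 (0.29), Dock2 (0.14) and Gbp5 (0.137), and the intervals of each pair of neighbours in that order overlapped. In the control library the order was Cyba (1.27 RPKM), Lgals9 (0.337), Fcer2a (0.233), Lair1 (0.129), Cxcl10 (0.107), Dock2 (0.0421) and Gbp5 (0.0181), with Ltb at 0. The intervals of all neighbours overlapped there, Cyba and Lgals9 included. Lair1, Gbp5 and Dock2, with 7475, 6637 and 11425 exon bases, had the lowest levels per length in the shRNA library. Lair1 was thus tied for second by reads in that library but came sixth per length.

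**Figure D4:**
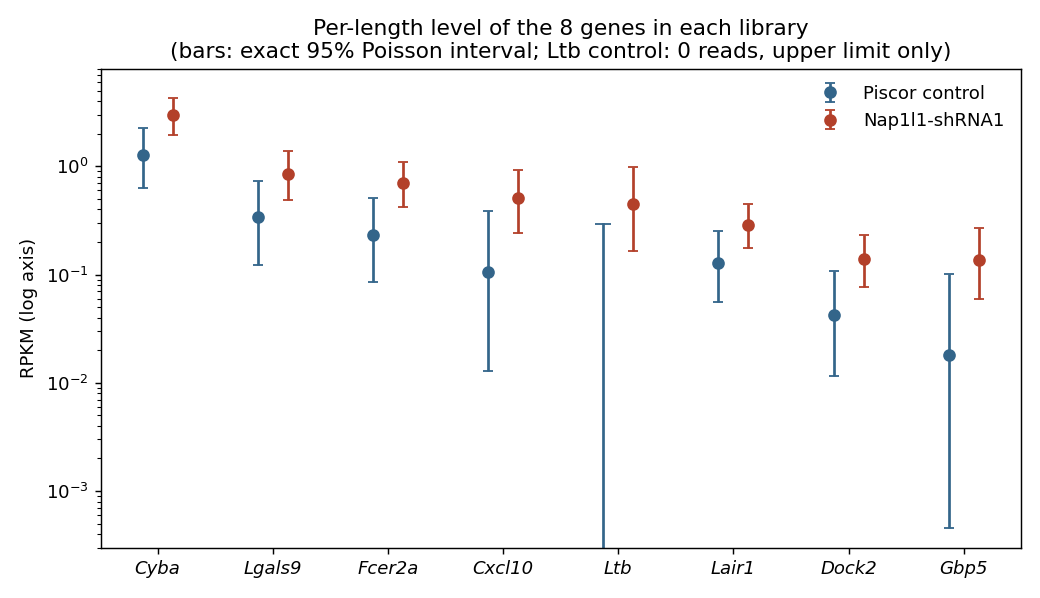
Per-length level (RPKM, log axis) of the 8 genes in the Piscor library (blue) and the Nap1l1-shRNA1 library (red), ordered by the shRNA level, with exact 95% Poisson intervals. Cyba stands highest in both libraries (1.27 and 2.96 RPKM), and for Ltb the control bar shows only the upper limit of 0 reads.

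Most of the 8 genes lay close to the lower edge of what was listed, as most listed genes did. For each control count, the lowest shRNA count among the 158 genes was taken as the edge, with the 8 genes themselves included. Lair1 (19 reads at 8 control reads) lay on it with 3 other listed genes of the same counts, and Lgals9 (16 at 6) itself set the edge among the 3 genes listed at 6 control reads. Cxcl10 (10 reads, edge 9), Ltb (6, edge 5), Dock2 (14, edge 13) and Gbp5 (8, edge 7) lay 1 read above it, Cyba (27, edge 24) lay 3 reads above it, and Fcer2a (19) lay 3 reads above Lgals9. In all, 6 of the 8 genes and 110 of the 158 were within 1 read of the edge. The edge is known only from the listed genes, and counts just below it were not analysed here.

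**Figure D5:**
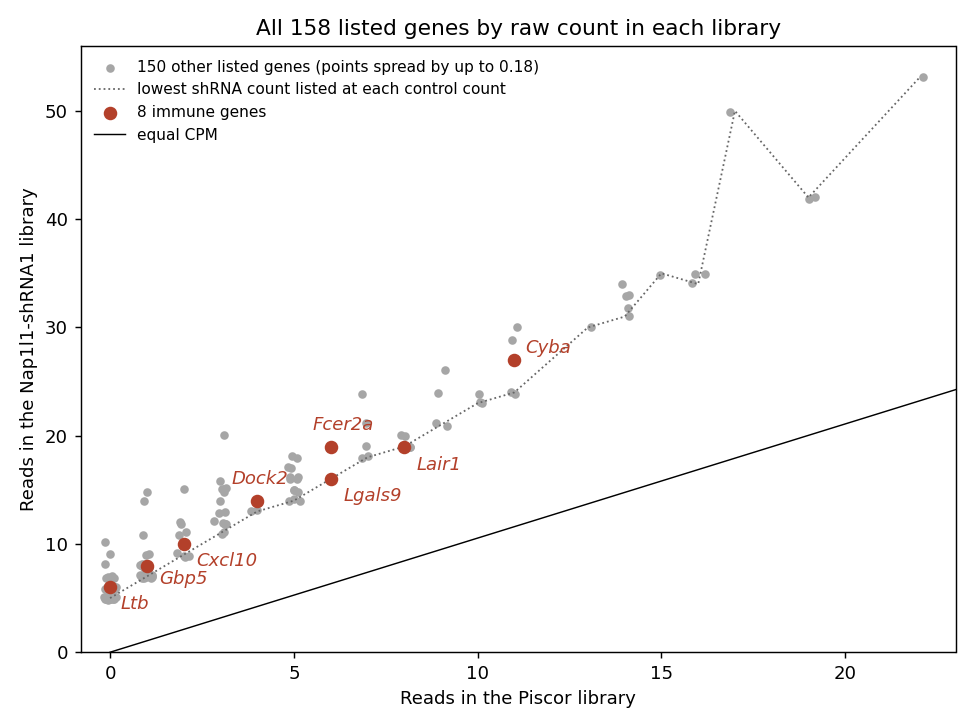
Raw counts of the 158 listed genes in the Piscor library (x axis) and the Nap1l1-shRNA1 library (y axis). The 8 immune genes (red) lie on or up to 3 reads above the dotted edge, and all listed genes lie above the line of equal CPM.

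The authors' deposited table gives the 8 genes p-values from 0.011 (Fcer2a) to 0.0437 (Lair1) and adjusted p-values from 0.0816 (Fcer2a) to 0.211 (Lair1). It marks 0 of them as significant, against 12% of all listed genes. Over the 59 distinct pairs of counts in the table, genes with the same pair carried the same p-value. A pair held by 1 gene, such as that of Cxcl10 or of Lgals9, cannot show this. The p-values compare 1 library with 1 library.

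The gene families and marker lists are counted here only by whether a gene was listed, because levels of genes outside the table were not analysed here. Of 42 interferon response genes, Cxcl10 and Gbp5 were listed. The list held the chemokines Cxcl9 and Cxcl11, the Ifit, Mx and Oas genes and the transcription factor gene Irf7, and these were not among the 158. Ltb was the 1 listed gene of 10 in the TNF and lymphotoxin list, which also held its partner Lta and its receptor Ltbr. Cyba was the 1 of 8 NADPH oxidase genes, without its partner Cybb. Dock2 was the 1 of 6 in leukocyte Rac signalling, Fcer2a the 1 of 7 Fc receptors, and Lair1 and Lgals9 were 2 of 8 inhibitory receptors and galectins. The members were chosen from the table by name, so these counts do not show a direction of any list.

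By symbol, 623 annotated protein-coding genes fell in the immune families searched, and 10 of them (1.61%) were listed, beside 83 of all 21992 protein-coding genes (0.377%). The families were written down with the 8 names known, so the first share is not independent of them. The other 2 were Ly96, which encodes the protein that binds lipopolysaccharide for Toll-like receptor signalling, and Cd59b, which encodes an inhibitor of complement. Ly96 had 5 reads with Nap1l1-shRNA1 and 0 with Piscor, and the interval of its ratio began at 0.869. For Cd59b, 13 reads against 4 gave a ratio of 3.08 (0.952 to 13). Both intervals include 1. None of the families of CC chemokines (37 genes), interleukins and their receptors (82), MHC genes (34), interferon regulatory factors (12) or immunity-related GTPases (4) had a listed gene.

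None of the marker genes of cell types was listed: 0 of 12 for microglia, 0 of 5 for leukocytes generally, 0 of 5 for B cells, 0 of 6 for T cells and 0 of 3 for endothelial cells. Likewise 0 of 8 neural stem cell markers and 0 of 4 neuronal markers were listed, so the labelled cell type could not be checked by its own markers. Only 0.377% of all protein-coding genes were listed, so 0 is the usual result for lists this short and says nothing about the cells present. The levels of these markers in either library were not analysed here, and a part of other cell types in the counts of the 8 genes was not tested.

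The 8 genes share no protein family. The domain names in the authors' deposited table are those of chemokines (IL8), TNF ligands (TNF), galectins (Gal-bind_lectin), C-type lectins (Lectin_C), immunoglobulin domains (Ig_3), DOCK proteins (DOCK-C2), guanylate-binding proteins (GBP) and cytochrome b558 (Cytochrom_B558a). They lie on 6 chromosomes, with Lgals9 and Dock2 both on chromosome 11 and Fcer2a and Cyba both on chromosome 8. Of the 8 genes, 7 carry an immune process term in the deposited gene annotation, all but Lair1, which has no process term. Over all 158 listed genes, 16 carry such a term, and 92 carry any process term. The 8 genes were picked by name as immune genes, so nothing is read from their count. An interferon term is carried by 2 of the 8, Gbp5 and Lgals9, and not by Cxcl10. Among the other listed genes, Gch1 also carries an interferon term. That of Gbp5 is a cellular response to interferon-gamma. Those of Lgals9 are negative regulation of interferon-gamma production and secretion, not a response to interferon.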

How the data were processed

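RNA enriched by oligo(dT) was sequenced from 1 Nap1l1-shRNA1 and 1 Piscor library. TopHat2 2.0.12, Bowtie 1.0.1 and HTSeq 0.6.0 are named, with no roles, per the submitters' processing notes. Genome build and strand setting are not given in the sources used here. For each Ensembl gene, the authors deposited raw counts, CPM values, the fold ratio, its log2 value, p-values and adjusted p-values for 158 genes, all marked up with a p-value of 0.0457 or less. The control columns spell Piscor with 2 letters exchanged. Deposited counts times a constant gave the CPM, and that constant gave the library totals.

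Ratios of CPM and their exact or mid-p intervals were computed from the counts in Python 3.11.15 with SciPy 1.17.1. The intervals were tested on simulated Poisson counts with no listing step and no spread between cultures. That test therefore does not show their coverage for genes listed on these same counts. With 1 library per group, no test between groups was made. Where a ratio is given at the floor, 3 reads stood for 0 reads, and the intervals used the counted 0. Log2 ratios used a pseudocount of 1 CPM. TMM factors came from edgeR 4.0.16. All 8 genes, and listed genes of the immune families and lists, were named. The members and lists were chosen with earlier results of these data known. Positions are the table's, and 6 of the 8 equal those of GENCODE M21 (GRCm38), while Fcer2a and Cyba differ by up to 10 bases. Start windows are from RefSeq (GRCm38.p6).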

Additional observations from a re-analysis of the deposited data

How the results depend on the processing

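The limits are 1 library per group, counts of 0 to 11 reads in the control, and a table of genes listed for being higher. Median-ratio and TMM scaling centre on these listed genes, and by that construction they put part of a table of higher genes below equal. Under them the pooled ratio was 0.854 and 0.857, that of Fcer2a 0.864 and 0.866, of Dock2 0.955 and 0.957, of Cyba 0.669 and 0.671, of Lgals9 0.727 and 0.729, and of Lair1 0.648 and 0.65. Those of Cxcl10 (1.36 and 1.37) and Gbp5 (2.18 and 2.19) stayed above 1, and every interval, pooled or single, included 1. For Ltb, 6 reads against 0 keep their direction under any scaling: the values of 0.545 and 0.547 come from setting its control at the floor of 3 reads. The 6 intervals above 1 became 0 under median-ratio scaling, 0 under TMM scaling, 0 at 99% (10.8% of all listed genes), and 8 with the mid-p interval (98.1%). The count was 4 with at least 10 counts, which leaves fewer genes. It was 2 with 1 read fewer in the shRNA library and 2 with 1 read more in the control, Fcer2a and Cyba both times. Both settings were chosen after seeing the data. Shares over all listed genes were not counted for the scalings, the filter on counts or the changes by 1 read. Nothing about the members is read from those counts. The number of members higher by 2-fold on log2(CPM + 1) was 0 (6.33% of all listed genes), with log2 ratios of 0.69 to 0.88. It was 8 with a pseudocount of 0.1 CPM and 8 from the log2 fold change in the authors' deposited table. Levels near 1 CPM are pulled together by a pseudocount of 1 CPM. The listing fixed the second 8, as the smallest deposited log2 fold change of any listed gene was 1.01. At 0.1 CPM the lowest log2 ratio of any listed gene was 0.975 (Gm29666), so the listing nearly fixed that count too. The number was 0 with 5 CPM, in genes of 10 or more counts, and for intervals above 2 (added after seeing the data). Leaving out 1 member at a time moved the pooled ratio between 2.82 (without Ltb) and 3.23 (without Cyba). It was 2.82 over the 6 members that share no exon bases with an opposite-strand gene, a choice added after seeing the data, and the interval was 2.08 to 4.32 by mid-p. No paired analysis was possible because the labels give no replicate numbers and each group has 1 library, which also means that none could be left out.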

Other observations

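Beyond the 8 genes, 9 listed genes carry an immune process term in the authors' deposited annotation, of 92 listed genes with any process term. They were chosen after their values were seen. Gch1, the first enzyme of tetrahydrobiopterin synthesis, is the 1 of them with an interferon term, and had 30 reads with Nap1l1-shRNA1 and 11 with Piscor, or 2.59 times the CPM (95% counting interval 1.26 to 5.72). Anxa4, an annexin, had 31 reads against 14, a ratio of 2.10 (1.08 to 4.27). Ptgis, prostacyclin synthase, had 11 against 2, a ratio of 5.22 (1.14 to 48.4). Mmp28, a matrix metalloproteinase, had 6 against 0, with a lower limit of 1.12. Elf4 (23 against 10) and Rab27a, a GTPase of granule secretion (7 against 1), had intervals that include 1. Ly96, Lyl1 and A230060F14Rik each had 5 reads against 0, and their lower limit of 0.869 is below 1. GENCODE types A230060F14Rik as an antisense RNA, yet its deposited entry names a protein domain, so its immune term is uncertain.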
